A study of Mus musculus with 36 samples.

Results

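The lipid-associated macrophage genes described here are Gpnmb, Trem2, Tyrobp, Spp1, Cd9, Cd63, Cd68, Lgals3, Itgax and Clec7a. They were taken from the deposited expression table by gene symbol, which matched 10 of its 49315 genes. The samples were 36 livers, 4 in each of 9 groups, taken from male mice of 11 to 12 weeks, and their polyA RNA was sequenced. The mice differed in liver X receptor alpha (LXRalpha), which senses oxysterols and switches on cholesterol export and lipid synthesis genes. They carried it with tryptophan at residue 441 on both alleles (W/W, the homozygous controls), with phenylalanine on 1 allele (W/F) or with phenylalanine on both (F/F). The mutant mice were made with CRISPR, and no promoter or Cre that would limit the change to 1 cell type is named. The study's design text pairs LXRalpha with the symbol Nr1h2, whereas the usual symbol of LXRalpha is Nr1h3. Each genotype was studied on normal chow, on a high-fat, high-cholesterol food that brings on steatohepatitis (the MASH diet) with vehicle, and on that diet with the LXR agonist T0901317. This diet was fed for 4 weeks, and vehicle or 10 mg/kg T0901317 was gavaged daily for the last 2 weeks. Chow mice came from an independent cohort, and no gavage is listed for them. Differences of diet, of gavage and of cohort therefore cannot be told apart where the text compares with chow. Whole liver was measured. In such bulk samples a change in the number of macrophages and a change in RNA per macrophage cannot be told apart.

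Lipid-associated macrophages are macrophages found in fatty tissue and fatty liver that take up lipid and cell debris, carry large lysosomes and gather around dying cells. Their best known receptor, Trem2, binds lipids and lipoproteins and signals through the adaptor Tyrobp to the kinase Syk. In the fatty liver such cells are known to appear beside, and partly in place of, the resident macrophages of the liver, the Kupffer cells. Most of the genes are not restricted to these cells: Spp1 is also made by bile duct cells, and Cd9 and Cd63 are present in many cell types.

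On the mouse build GRCm38 (GENCODE M21), Gpnmb lies on chromosome 6 from 49036546 to 49070929, Trem2 on chromosome 17 from 48346401 to 48354147 and Tyrobp on chromosome 7 from 30413760 to 30417585. Spp1 lies on chromosome 5 from 104435118 to 104441050, Cd9 on chromosome 6 from 125460266 to 125494791 and Cd63 on chromosome 10 from 128900989 to 128912822. Cd68 lies on chromosome 11 from 69664213 to 69666153, Lgals3 on chromosome 14 from 47367751 to 47386160, Itgax on chromosome 7 from 128129547 to 128150657 and Clec7a on chromosome 6 from 129461591 to 129472779. Cd9, Cd68 and Clec7a are on the minus strand. M21 types Clec7a as a polymorphic pseudogene and the other members as protein coding. Of the 50-base words in their transcripts, Cd9 shared 14.4% with other annotated genes, first Gm26728, which lies across its exons on the opposite strand and reached 0.232 TPM. Spp1 shared 11.6% with Gm42793, which overlaps its exons on the same strand and reached 6.38 TPM. Cd63 shared 11.1%, mainly with the pseudogene Cd63-ps, and Itgax 8.02% with the related integrin gene Itgad. Reads could be split between such pairs, and the handling of strand and of shared reads is not given in the sources used here. The other 6 shared at most 0.0154%.

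Promoter sequences are shown because the 10 genes moved largely together across the groups. RefSeq windows of 300 bases on GRCm38.p6, from 250 bases before to 50 bases after a transcript start, were found for 9 of the 10 genes in 11 windows. Both strands were searched for TGANTCA, which allows any middle base in the site TGACTCA or TGAGTCA of AP-1 factors such as Fos and Jun. This looser pattern occurred in 4 of the 11 windows and in 7.81% of all 32851 windows. It began at position 9 from the start in Gpnmb (chr6:49036268-49036567, plus strand), at -9 in Trem2 (chr17:48346151-48346450, plus strand), at -149 and -24 in Cd68 (chr11:69666121-69666420, minus strand) and at -56 in Itgax (chr7:128129300-128129599, plus strand). The match in Trem2 was TGAATCA, and those in Gpnmb, Cd68 and Itgax were TGACTCA or TGAGTCA. These 4 windows are printed 5′ to 3′ on the strand of the gene, with the letters matching the looser pattern in capitals.
Gpnmb: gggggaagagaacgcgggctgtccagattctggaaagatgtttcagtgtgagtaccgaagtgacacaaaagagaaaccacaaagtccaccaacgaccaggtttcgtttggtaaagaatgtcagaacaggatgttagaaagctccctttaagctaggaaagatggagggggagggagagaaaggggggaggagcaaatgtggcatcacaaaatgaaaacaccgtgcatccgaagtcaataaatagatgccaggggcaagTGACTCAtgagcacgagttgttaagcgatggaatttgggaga
Trem2: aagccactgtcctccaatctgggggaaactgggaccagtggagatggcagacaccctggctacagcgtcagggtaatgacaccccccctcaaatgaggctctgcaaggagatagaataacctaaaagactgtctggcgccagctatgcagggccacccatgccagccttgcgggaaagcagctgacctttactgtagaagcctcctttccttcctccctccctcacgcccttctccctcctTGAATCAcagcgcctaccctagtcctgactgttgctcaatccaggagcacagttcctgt
Cd68: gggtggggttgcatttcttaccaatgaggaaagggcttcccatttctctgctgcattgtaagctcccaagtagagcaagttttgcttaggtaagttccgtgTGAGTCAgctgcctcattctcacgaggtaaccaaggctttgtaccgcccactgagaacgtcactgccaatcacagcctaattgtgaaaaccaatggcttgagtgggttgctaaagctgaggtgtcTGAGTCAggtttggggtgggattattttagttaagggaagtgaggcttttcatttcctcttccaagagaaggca
Itgax: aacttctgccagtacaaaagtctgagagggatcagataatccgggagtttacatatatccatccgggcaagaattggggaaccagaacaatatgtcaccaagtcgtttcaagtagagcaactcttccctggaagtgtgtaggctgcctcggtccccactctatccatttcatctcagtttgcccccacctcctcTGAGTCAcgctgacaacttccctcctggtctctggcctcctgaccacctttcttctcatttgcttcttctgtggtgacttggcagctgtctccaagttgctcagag
GAGGAAGT, a core site of the myeloid factor PU.1, occurred in a Spp1 window at -113 and in 3.20% of all windows. The E-box CACGTG (7.15% of all windows), the M-box core TCATGTG (3.77%), both bound by the MITF and TFE family of lysosome regulators, and the strict LXR element, a direct repeat of AGGTCA spaced by 4 bases (0.0152%), occurred in none of the 11. The motifs were chosen with the expression results in view. A match describes the letters of these windows, and no binding was measured.

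Library depth, recovered from the steps between low TPM values, was 18.1 M to 35.8 M reads with a median of 23.9 M, where M stands for 1000000. Values are TPM, transcripts per 1000000, in which a level is per length of transcript and the total of each library is fixed. Tests used limma on log2(TPM + 1) over the 16638 genes that reached 1 TPM in 4 or more livers. Called means an adjusted p below 0.05, by the Benjamini-Hochberg method over all these genes. Differences are in log2 units on that scale, which understates the change of genes near 1 TPM. All 10 members passed the filter, but Trem2 reached 1 TPM in 1 of 12 W/W mice, Gpnmb in 2 and Itgax in 3, so these 3 passed mainly through the mutant groups. The median gene itself differed between groups: it was 0.70 higher in F/F than in W/W on the MASH diet with vehicle, and 0.03 higher after each library was rescaled to its median gene. The labels do not say how mice with the same replicate number are related, and p-values measure the spread between these mice.

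In 5 libraries 8 or more of the 10 members held the highest value of the group, or 8 or more the lowest. The library labelled W/F T0901317 replicate 2 was the highest of its group for 10 of 10 members, with a summed level of 832 TPM against 196 to 244 TPM in the other 3. Its summed level was also high for 10 general macrophage genes (1114 against 137 to 182 TPM), for monocyte genes (74.4 against 8.08 to 11.2 TPM) and for T and NK cell genes (15.6 against 2.37 to 3.34 TPM), and low for hepatocyte genes (54924 against 72952 to 79999 TPM). W/W T0901317 replicate 2 was highest in its group for 10 members and W/W vehicle replicate 4 for 8, while F/F T0901317 replicate 3 was lowest for 10 and F/F chow replicate 2 for 9. In comparisons that use its group, results whose call rests on 1 of these libraries are given with and without it. All groups share 1 estimate of spread, and the effect of a library on comparisons without its group was not tested by leaving it out.

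Trem2 and its adaptor Tyrobp were highest in mutant livers on the MASH diet with vehicle. Trem2 measured 0.107 to 0.208 TPM in W/W mice on chow, which is as few as 4 reads in a library, and 0.334, 0.307, 0.428 and 0.814 TPM in W/W vehicle mice. With vehicle it measured 38.1, 42.7, 50.3 and 38.3 TPM in W/F and 63.5, 55.3, 43.6 and 59.2 TPM in F/F mice. The mutant and control ranges were far apart, while the W/F and F/F vehicle ranges overlapped. With T0901317, Trem2 was 22.5 to 32.6 TPM in F/F mice, and in W/F mice 1.02, 5.89, 1.12 and 0.98 TPM. The order of the group means was F/F vehicle, W/F vehicle, F/F T0901317 and F/F chow, then the remaining groups. W/F vehicle lay above F/F T0901317, and F/F T0901317 above F/F chow, without overlap, and neighbours further down overlapped. Tyrobp, the adaptor that carries the Trem2 signal and that of other myeloid receptors, had the same order of group means down to W/W vehicle but a lower mean in W/F than in W/W on chow. It ran from 340 ± 43.0 TPM in F/F vehicle mice to 12.6 ± 3.59 TPM in W/F chow mice (mean ± SD, n = 4).

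Clec7a, the receptor known as Dectin-1 that recognises fungal beta-glucan and signals through Syk without Tyrobp, had another order. Its highest values were in W/F vehicle mice, at 150, 239, 258 and 188 TPM. F/F vehicle mice had 98.4, 76.0, 66.0 and 102 TPM, and F/F mice given T0901317 had 81.7, 78.6, 69.1 and 108 TPM. The W/F vehicle values lay above every F/F value, and the F/F vehicle and F/F T0901317 values overlapped over nearly their whole range. In W/W mice it lay between 2.17 and 11.1 TPM in all 3 conditions. The ratio of Clec7a to Tyrobp, taken in each liver, was 0.730 ± 0.111 in W/F vehicle mice, 0.252 ± 0.0396 in F/F vehicle mice and 0.570 ± 0.119 in F/F T0901317 mice (mean ± SD, n = 4), against 0.153 to 0.224 as group means in W/W mice. This ratio was looked at after the values were seen and is given without a test.

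Gpnmb, a glycoprotein of the endosome and lysosome membrane, had the largest ratio of highest to lowest group mean of the 10. It measured 0.342 to 0.798 TPM in W/W chow mice and 0.409 to 0.644 TPM in W/F chow mice, but 28.5, 25.7, 47.3 and 37.8 TPM in F/F chow mice. On the MASH diet with vehicle it measured 0.491, 0.482, 0.711 and 3.05 TPM in W/W mice, 278, 479, 597 and 385 TPM in W/F mice and 515, 497, 461 and 601 TPM in F/F mice. With T0901317 it was 143 to 224 TPM in F/F mice, and in W/F mice 1.00, 37.7, 0.931 and 1.74 TPM. Thus 3 of 4 treated W/F mice lay within the range of W/W livers on the MASH diet, and the fourth lay with F/F chow mice. Cd68, a lysosomal glycoprotein of macrophages, and Cd63, a tetraspanin of late endosomes and lysosomes, were also highest in F/F vehicle mice, at 290 ± 37.7 and 1482 ± 123 TPM. For Cd63 the F/F vehicle values (1322 to 1597 TPM) did not overlap those of W/F vehicle mice (913 to 1039 TPM), whereas for Cd68 they did. Cd9, a tetraspanin of the cell surface, differed in the same way, at 288 to 348 TPM in F/F vehicle mice and 161 to 210 TPM in W/F vehicle mice.

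Spp1, the secreted matrix protein osteopontin that binds integrins and Cd44, had the highest level of the 10 in every group. With vehicle it measured 55.4, 45.7, 47.2 and 46.4 TPM in W/W mice, then 1526, 1198, 1121 and 1125 TPM in W/F and 2757, 3433, 3359 and 3146 TPM in F/F. The ranges of these 3 groups did not overlap. On chow it measured 681 to 933 TPM in F/F mice, and 162, 84.1, 49.5 and 130 TPM in W/F mice, of which 1 lay within the W/W range of 43.0 to 55.4 TPM. Lgals3, the secreted lectin galectin-3, measured 2.72 to 3.23 TPM in W/W chow mice, and with vehicle 290 to 420 TPM in W/F against 498 to 610 TPM in F/F, without overlap. Itgax, the integrin chain CD11c that pairs with Itgb2, was similar in both mutants on vehicle, at 42.4, 56.8, 63.1 and 43.0 TPM in W/F and 54.1, 34.8, 40.9 and 56.6 TPM in F/F mice, against 0.258, 0.506, 0.336 and 3.23 TPM in W/W mice.

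**Figure D1:**
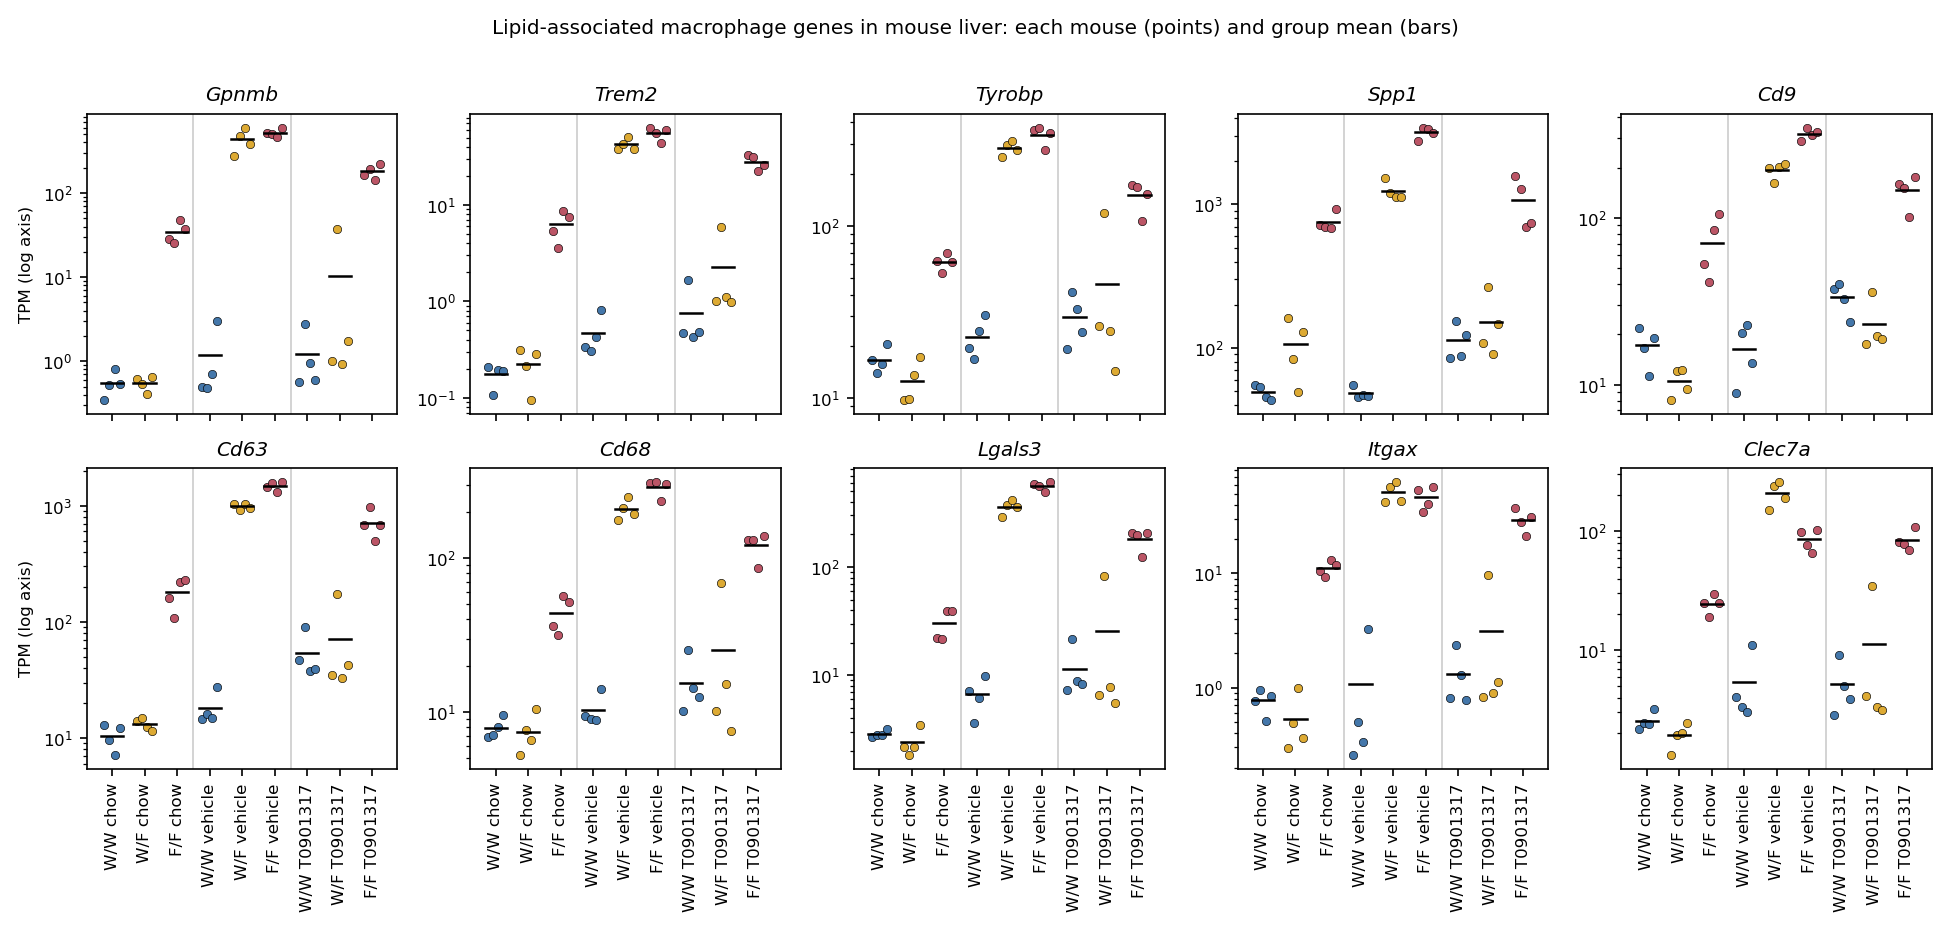
Each panel plots 1 gene in TPM on a log axis for each mouse (points, replicates 1 to 4 from left to right) and the mean of its group (black bars), over 9 groups of 4 mice ordered by condition and coloured by genotype. F/F mice lie above W/W mice in all 3 conditions, W/F mice overlap W/W mice on chow and lie far above them on vehicle, and W/F T0901317 replicate 2 stands above the other 3 of its group.

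In the chow cohort, which had no MASH diet, members were called against W/W in F/F but not in W/F mice. All 10 members were called higher in F/F than in W/W, by 1.83 for Tyrobp (SE 0.34, adjusted p 8.92e-05) to 4.50 for Gpnmb (SE 0.53, adjusted p 1.09e-07). Values of the 4 F/F mice lay above those of the 4 W/W mice for 10 of 10 members, a count not made over all genes. Of all genes tested, 46.7% were called and 43% were called higher, and the share of calls that were higher was 92.2% as deposited and 53.1% after rescaling. The median of the members was 2.81, against 0.29 over all genes. Spp1 (3.91, SE 0.29, adjusted p 3.07e-11) and Cd63 (3.94, SE 0.34, adjusted p 5.29e-10) had the largest differences after Gpnmb. F/F was also above W/F on chow for 10 members, by 2.24 to 4.49, where 41.4% of all genes were called and 37.9% were called higher, so that 91.7% of calls were higher (52.8% after rescaling). W/F and W/W mice on chow gave 0 called members, with 2 at an unadjusted p under 0.05 in limma (Cd9 and Spp1), where 0.487% of all genes were called. The Spp1 difference of 0.97 (adjusted p 0.238) became a call at 1.29 (adjusted p 0.0227) without W/F chow replicate 3.

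On the MASH diet with vehicle, levels were far above those of the chow cohort in both mutants, with 0 called members in W/W mice. In W/F mice 10 of 10 members were called higher than on chow, by 3.65 for Spp1 (SE 0.29, adjusted p 6.90e-12) to 8.08 for Gpnmb (SE 0.53), with 61% of all genes called and 52.4% called higher, so that 86.0% of calls were higher (50.8% after rescaling). The members' median was 5.11, against 0.39 over all genes. As a ratio of group means in TPM, Gpnmb rose 789-fold, Trem2 187-fold, Lgals3 148-fold, Clec7a 109-fold and Itgax 95.8-fold in W/F mice. In F/F mice, whose chow group was above those of the other genotypes, 10 members were called higher than on chow. The differences ran from 1.76 for Clec7a (SE 0.42, adjusted p 0.000749) to 4.21 for Lgals3. Of all genes 55.8% were called and 46.5% were called higher, so that 83.4% of calls were higher (54.6% after rescaling). The members' median was 2.58, against 0.32 over all genes. Lgals3 rose 18.4-fold and Gpnmb 14.9-fold in TPM in F/F mice. In W/W mice the differences ran from -0.11 for Cd9 to 0.92 for Lgals3 (SE 0.46, adjusted p 0.201). There, 1 member (Cd63, 0.73, adjusted p 0.169) had an unadjusted p under 0.05, and 12.9% of all genes were called, of which 20.1% were higher (45.3% after rescaling). Lgals3 became a call (adjusted p 0.0386) when only the groups compared were fitted. Chow and vehicle values of W/W mice did not overlap for 3 members, Trem2, Cd63 and Lgals3, a count not made over all genes. As a ratio of group means in TPM, these rose 2.69-fold, 1.75-fold and 2.32-fold. Ratios of the other members ran from 0.950 for Cd9 to 2.15 for Gpnmb, with overlap. Trem2 stayed under 1 TPM in these mice, where the log2 scale used understates change.

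The diet response was tested between genotypes. It was larger in W/F than in W/W mice for 10 members, by 3.67 to 7.72, where the test of this difference called 54.6% of all genes and 49.5% as higher, so that 90.6% of calls were higher (52.4% after rescaling). It was larger in F/F than in W/W mice for 9 members, by 1.91 to 3.53, where 46% of all genes were called and 41.5% were called higher, so that 90.1% of calls were higher (54.1% after rescaling). Clec7a was the exception, with a difference of 1.06 (95% interval -0.15 to 2.28, adjusted p 0.144), which became a call at 1.43 (adjusted p 0.0455) without W/W vehicle replicate 4, and also when only the groups compared were fitted (adjusted p 0.0348). The response of F/F mice was smaller than that of W/F mice for 10 members, by 1.58 to 4.39, where 6.83% of all genes were called and 5.49% were called lower, so that 19.6% of the calls were higher (36.5% after rescaling). The Cd68 call among these was lost without F/F chow replicate 3 (adjusted p 0.0539). The comparisons of diet responses share their control groups.

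On the diet with vehicle, both mutants were compared with W/W and with each other. All 10 members were called higher than in W/W, by 3.55 to 7.73 in W/F, where 68.5% of all genes were called, 61.6% were called higher and the share of calls that were higher was 90.02% (51.9% after rescaling). They were higher by 3.86 to 8.03 in F/F, where 76.5% were called, 69.3% were called higher and the share was 90.7% (52.5% after rescaling). The mutants had 2 members called between them, where 21.3% of all genes were called, 19% as higher and 2.3% as lower, so that 89.2% of calls were higher in F/F (54.2% after rescaling). Spp1 was higher in F/F by 1.36 (SE 0.29, 95% interval 0.77 to 1.95, adjusted p 0.00133), and Clec7a was lower in F/F, at -1.27 (SE 0.42, 95% interval -2.13 to -0.41, adjusted p 0.0305). The Clec7a call was lost, at an adjusted p of 0.0530 to 0.0799, without any 1 of F/F vehicle replicates 2 and 3 and W/F vehicle replicates 2, 3 and 4, although the 4 and 4 values did not overlap. Cd9 was 0.73 higher in F/F (95% interval 0.18 to 1.27, adjusted p 0.0502), and when only these groups were fitted 6 members were called, 5 of them higher in F/F.

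**Figure D2:**
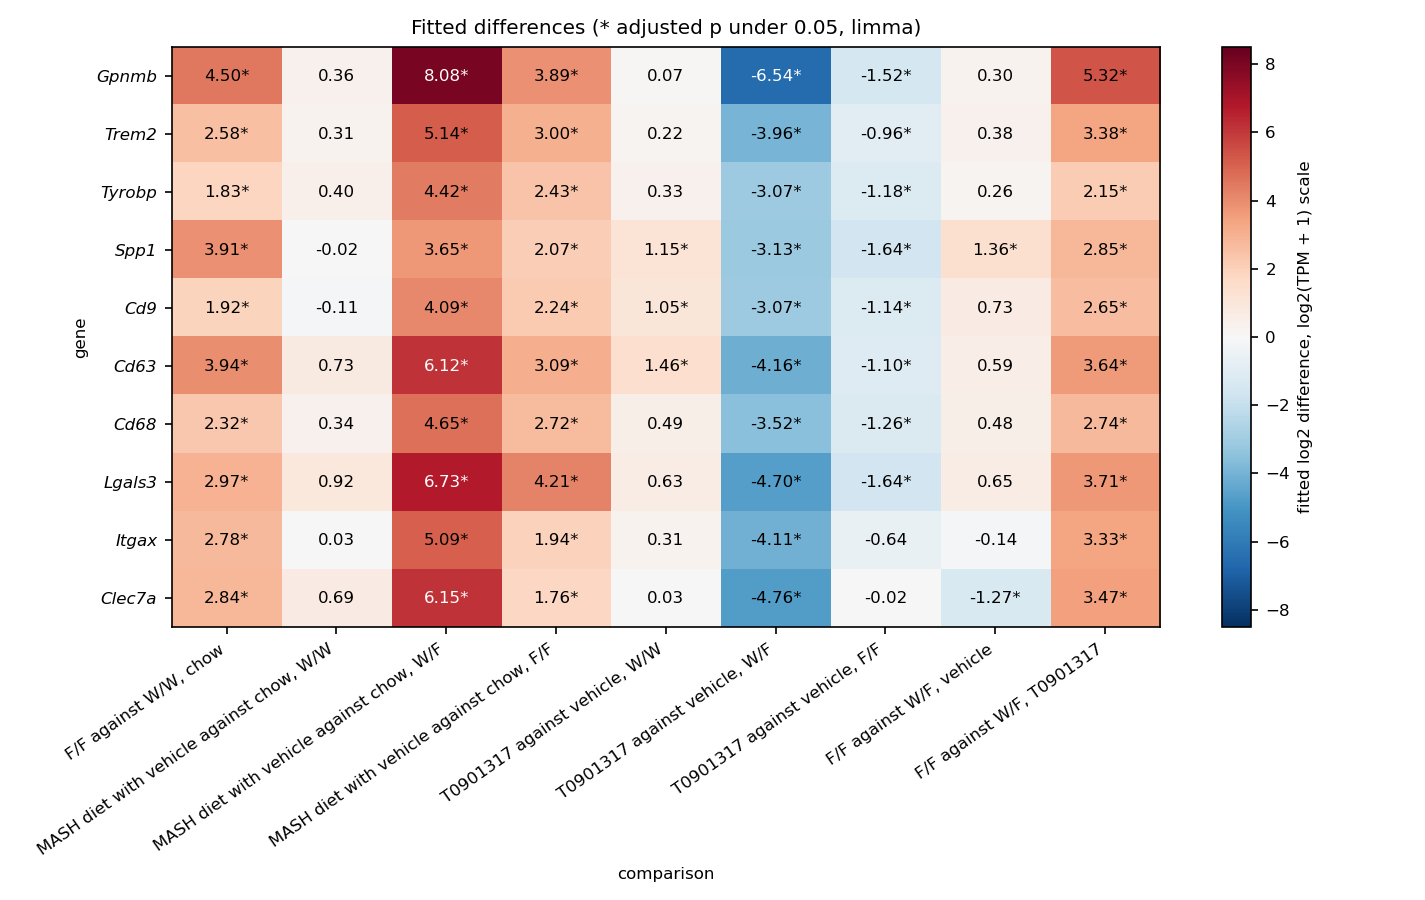
Fitted log2 differences (colour and printed value) of the 10 genes (rows) in 9 comparisons (columns), with a star where limma gave an adjusted p under 0.05. The W/F diet column reaches 8.08 for Gpnmb, the W/F T0901317 column is negative for all 10 genes, and the F/F T0901317 column is unstarred for Itgax and Clec7a.

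With T0901317 all members fell in W/F livers and 3 rose in W/W livers. In W/F mice all 10 members fell against vehicle, by 3.07 for Cd9 (SE 0.27, adjusted p 1.27e-10) to 6.54 for Gpnmb (SE 0.53, adjusted p 3.88e-11). The treated and vehicle values did not overlap for 10 of 10 members, a count not made over all genes. Of all genes, 65.9% were called and 59.3% were called lower, so that 10.0% of calls were higher (46.6% after rescaling). The members' median was -4.04, against -0.49 over all genes. The group mean with T0901317 was 2.38% of the vehicle mean for Gpnmb and 16.3% for Tyrobp, the lowest and highest of the 10. As a ratio of medians, which W/F T0901317 replicate 2 moves less, the lowest was Gpnmb at 0.318% and the highest Spp1 at 11.0%, with Tyrobp at 8.87%. Without W/F T0901317 replicate 2 the falls were larger, at -7.58 for Gpnmb, -5.57 for Lgals3, -5.51 for Clec7a and -3.69 for Tyrobp, and all 10 members were still called. In W/W mice 3 members rose, where 10.8% of all genes were called and 7.87% were called higher, so that 73.02% of calls were higher (59.2% after rescaling): Cd63 by 1.46 (SE 0.34, adjusted p 0.00405), Spp1 by 1.15 (SE 0.29, adjusted p 0.00736) and Cd9 by 1.05 (SE 0.27, adjusted p 0.00814). Cd63 measured 14.51, 16.00, 15.04 and 27.82 TPM with vehicle and 46.80, 91.05, 38.03 and 39.40 TPM with T0901317, which did not overlap. Spp1 measured 85.2 to 155 TPM with T0901317, above the vehicle range. The Cd9 call was lost without W/W vehicle replicate 1 (0.80, adjusted p 0.0588). The other 7 differences in W/W mice were 0.03 to 0.63.

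In F/F livers the falls were partial and unequal. Of the 10 members 8 fell, by 0.96 for Trem2 (SE 0.27, adjusted p 0.00716) to 1.64 for Spp1 (SE 0.29, adjusted p 0.000134) and Lgals3, where 35.1% of all genes were called and 31.2% were called lower, so that 11.3% of calls were higher (51.1% after rescaling). The members' median was -1.16, against -0.24 over all genes. The mean left with T0901317 was 32.5% of vehicle for Lgals3, 33.9% for Spp1, 35.02% for Gpnmb and 41.9% to 50.6% for Cd68, Tyrobp, Cd9, Cd63 and Trem2. Itgax kept 63.4% of its vehicle level, with a difference of -0.64 that was not called (95% interval -1.41 to 0.13, adjusted p 0.182) but became a call when only these groups were fitted (adjusted p 0.0305). Clec7a kept 98.4%, with a difference of -0.02 (95% interval -0.88 to 0.84, adjusted p 0.978). After rescaling 5 of the 8 falls were called, and Gpnmb (-1.25, adjusted p 0.104), Trem2 (-0.69, adjusted p 0.0552) and Cd63 (-0.83, adjusted p 0.0650) were not. The Gpnmb call was also lost without F/F T0901317 replicate 3 (adjusted p 0.0811) or F/F vehicle replicate 4 (adjusted p 0.0615), and the Cd63 call without F/F T0901317 replicate 3 (adjusted p 0.0663). With a pseudocount of 0.1 the Gpnmb and Trem2 calls were lost (adjusted p 0.0852 and 0.0658). All 8 falls stayed called when only these groups were fitted. The main fit shares its estimate of spread over all groups, among them W/F T0901317. The SD of Gpnmb log2 levels was 2.08 in that group, against 0.28 and 0.16 in F/F mice with T0901317 and with vehicle.

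**Figure D3:**
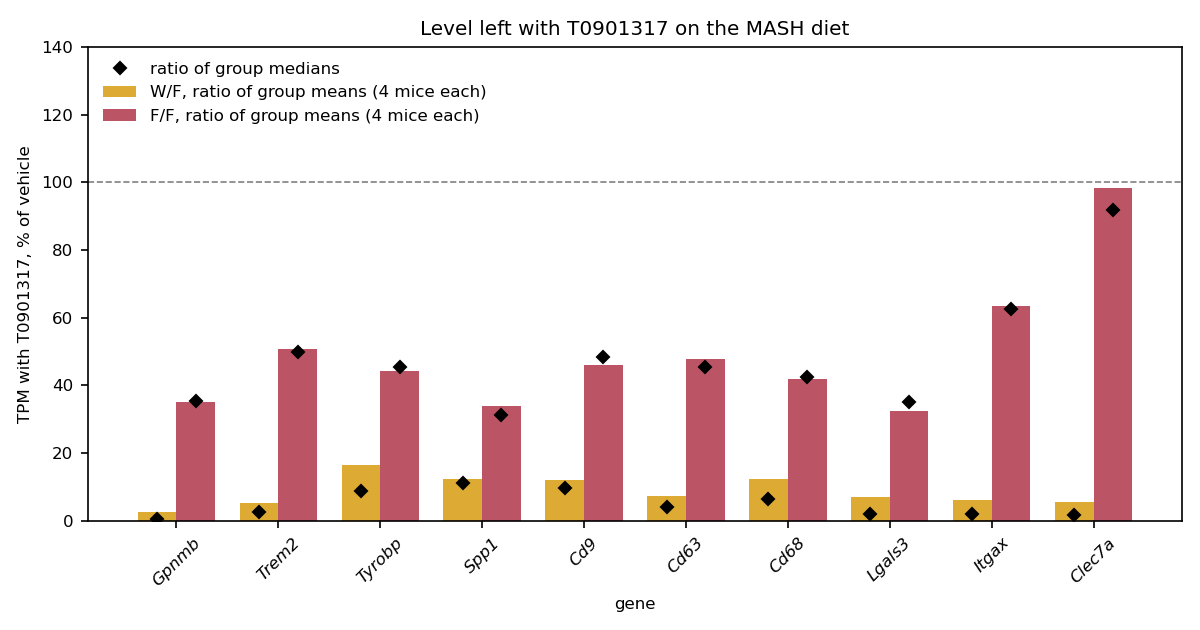
Bars give the mean TPM of 4 mice given T0901317 as a percentage of the mean of 4 vehicle mice on the same diet, for W/F (yellow) and F/F (red), and diamonds give the same ratio of medians. The W/F bars lie between 2.38% and 16.3% and their diamonds, less moved by W/F T0901317 replicate 2, between 0.318% and 11.0%, while the F/F bars lie between 32.5% for Lgals3 and 98.4% for Clec7a.

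The responses to T0901317 were also tested against each other. The W/F response was more negative than the W/W response for 10 members, by 3.41 to 6.61 in size, where 58.5% of all genes were called for this difference and 53.2% were called lower, so that 9.02% of calls were higher (45.4% after rescaling). The F/F response was more negative than that of W/W for 7 members, where 30.4% of all genes were called and 27.2% were called lower, so that 10.8% of calls were higher (42.4% after rescaling). Gpnmb (-1.59, adjusted p 0.105), Itgax (-0.95, adjusted p 0.177) and Clec7a (-0.05, adjusted p 0.959) were not called, although Gpnmb was when only the groups compared were fitted (adjusted p 0.0120). The Trem2 call in this comparison was lost without W/W T0901317 replicate 2 (adjusted p 0.0558) and the Tyrobp call without F/F T0901317 replicate 3 (adjusted p 0.0501), both were lost after rescaling (adjusted p 0.0722 and 0.0705), and Itgax became a call without W/W vehicle replicate 4 (-1.35, adjusted p 0.0370). F/F and W/F responses differed for 10 members, with the F/F fall smaller by 1.49 for Spp1 to 5.02 for Gpnmb, where 19.2% of all genes were called and 17.6% were called higher, which is 91.6% of the calls (53.4% after rescaling). For Clec7a the gap was 4.74 (SE 0.60, adjusted p 7.17e-06). Without W/F T0901317 replicate 2 the gaps between F/F and W/F were 6.06 for Gpnmb, 5.49 for Clec7a and 3.93 for Lgals3, and the W/F minus W/W difference was -7.65 for Gpnmb. These comparisons share vehicle groups.

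Livers given T0901317 on the MASH diet were also set against chow. In W/F mice 9 members were called higher than on chow, where 29.7% of all genes were called and 11% were called higher, so that 37.1% of calls were higher (53.4% after rescaling). Without W/F T0901317 replicate 2 the number was 5, and Gpnmb changed from 1.54 (adjusted p 0.0277) to 0.50 (adjusted p 0.223), Cd68 from 1.13 to 0.48 (adjusted p 0.165), Itgax from 0.98 to 0.36 (adjusted p 0.387) and Clec7a from 1.39 to 0.64 (adjusted p 0.102). The calls of Gpnmb, Cd68 and Itgax were also lost without single W/F chow libraries, at adjusted p 0.0511 and 0.0574 for Gpnmb (replicates 2 and 3), 0.0616 for Cd68 (replicate 1) and 0.0819 to 0.102 for Itgax (replicates 1, 2 and 4). Those still called without W/F T0901317 replicate 2 were Trem2, Tyrobp, Cd9, Cd63 and Lgals3, and fitting these 2 groups alone left Cd9 and Cd63 called, with Gpnmb, Trem2 and Itgax below the filter. In F/F mice 9 members were higher than on chow, by 1.10 for Cd9 to 2.57 for Lgals3 (the Itgax call was lost with a pseudocount of 0.1, adjusted p 0.0564), where 37.4% of all genes were called and 24.6% were called higher, so that 65.8% of calls were higher (53.8% after rescaling). Spp1 was at 0.43 (SE 0.29, adjusted p 0.251), with 1582, 1277, 700 and 744 TPM in treated F/F mice against 681 to 933 TPM on chow, which overlapped. In W/W mice Cd63, Lgals3, Spp1 and Cd9 were called higher, by 2.19, 1.56, 1.14 and 0.93, where 23.1% of all genes were called and 10.3% were called higher. Trem2 was also called there with a pseudocount of 0.1 (1.46, adjusted p 0.00778), Cd68 after rescaling (adjusted p 0.0470) or when only the groups compared were fitted (adjusted p 0.0285), and Tyrobp in the latter fit (adjusted p 0.0320). The Lgals3 call there was lost without W/W T0901317 replicate 2 (adjusted p 0.0767) and the Cd9 call without W/W chow replicate 3 (adjusted p 0.0559).

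With T0901317, W/F and W/W livers had 0 called members between them, with 3 at an unadjusted p under 0.05 in limma, where 9.88% of all genes were called. Trem2 was 0.70 higher in W/F (SE 0.27, adjusted p 0.0976), and this became a call without W/W T0901317 replicate 2 (0.92, adjusted p 0.0313) or after rescaling (0.75, adjusted p 0.0408). F/F livers remained above both. All 10 members were called higher than in W/W, by 2.09 for Cd9 to 6.44 for Gpnmb, where 63.2% of all genes were called and 56.3% were called higher, so that 89.0% of calls were higher (51.6% after rescaling). They were higher than in W/F by 2.15 for Tyrobp to 5.32 for Gpnmb, where 62.6% were called and 58.5% were called higher, so that 93.5% of calls were higher (53.2% after rescaling). Without W/F T0901317 replicate 2 these differences were larger, at 6.36 for Gpnmb, 4.57 for Lgals3, 4.22 for Clec7a and 2.76 for Tyrobp. F/F and W/F values overlapped for 1 of the 10 members, Tyrobp, through W/F T0901317 replicate 2 at 119 TPM against 108 to 173 TPM in F/F mice. Such overlaps were not counted over all genes.

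Several of the 10 genes differed between groups in their level relative to general macrophage genes. The difference between the log2 level of a member and the mean log2 level of Adgre1, Csf1r, Ptprc, Aif1, Fcgr1, Mpeg1, Laptm5, Cd14, Lyz2 and Cybb was taken in each liver. For Gpnmb on vehicle it was -2.21 in control mice, against 2.18 for W/F and 2.24 for F/F, without overlap between control and mutant mice. For Tyrobp it was 1.14 to 1.64 as a mean in the 9 groups, the narrowest range of the 10, and for Cd9 0.80 to 1.55 with SDs of up to 0.76. Cd63 went from 1.03 in W/W vehicle mice to 3.76 in F/F vehicle mice, and Lgals3 from -0.31 to 2.37. Clec7a was at 1.15 in W/F and -0.36 in F/F livers on vehicle, and at 0.59 in F/F T0901317 mice. Low levels are drawn together by the pseudocount on this scale, and no test was made because both sides of the difference moved.

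**Figure D4:**
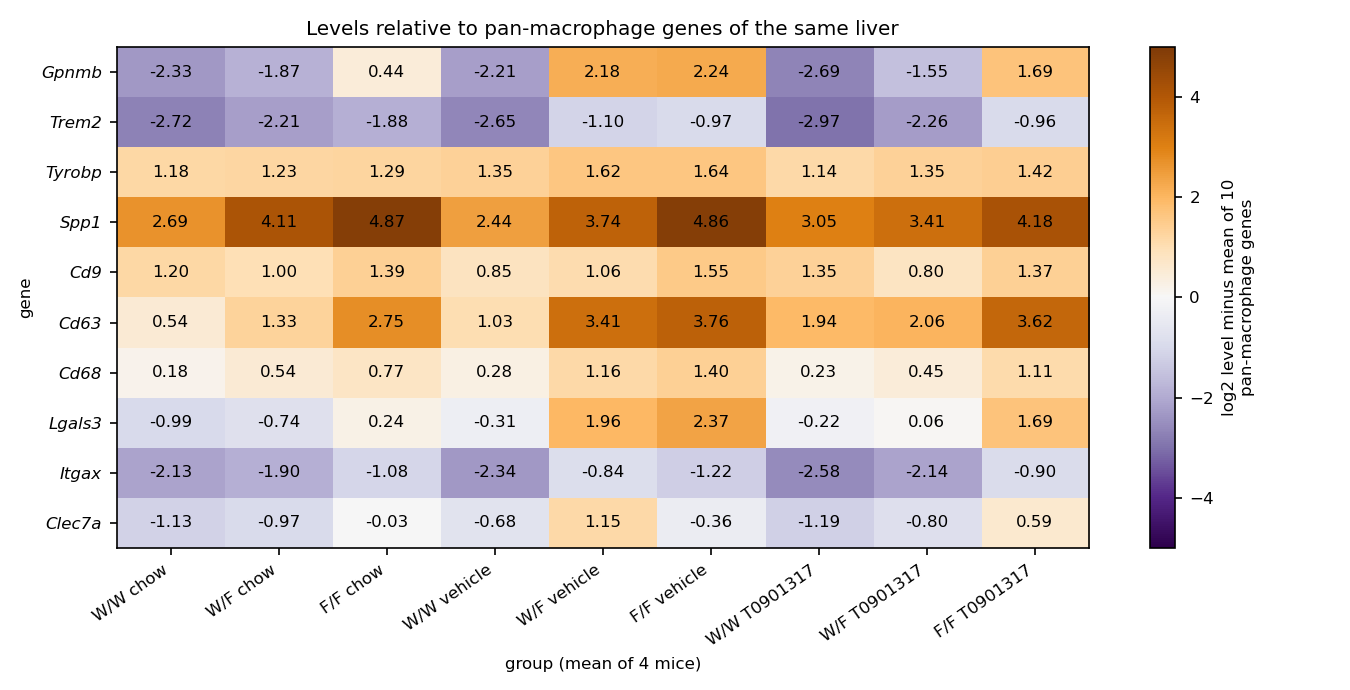
Each cell gives, as colour and value, the mean over 4 mice of the log2(TPM + 1) level of a gene (rows) minus the mean log2 level of 10 general macrophage genes in the same liver, by group (columns). Gpnmb goes from -2.21 in W/W vehicle to 2.24 in F/F vehicle, Tyrobp stays between 1.14 and 1.64, and Clec7a is highest in W/F vehicle at 1.15.

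Genes of the signal path below Trem2, Tyrobp and Clec7a moved in the same direction as the members, with smaller medians. Of 16 such genes, 16 were called higher in W/F than in W/W on vehicle and 16 in F/F than in W/W, where 61.6% and 69.3% of all genes were called higher. Their medians were 1.86 and 1.89, against 0.52 and 0.70 over all genes. In W/F mice, where 59.3% of all genes were called lower with a median of -0.49, 16 fell with T0901317 (median -1.72), led by Lat2, an adaptor of myeloid receptors, at -3.06 (adjusted p 8.08e-12) and Syk at -2.56. In F/F mice, where 31.2% of all genes were called lower with a median of -0.24, 13 of 16 fell (median -0.72), led by Lat2 at -1.72 and Plcg2, a phospholipase downstream of Syk, at -1.29, and Syk (-0.70, adjusted p 0.0576), Vav1 (-0.72, adjusted p 0.0690) and Pik3ap1 (-0.36, adjusted p 0.232), named after their values were seen, were not called. Of 16 partners of Spp1, Lgals3, Itgax and the tetraspanins, 14 fell with T0901317 in W/F (median -1.30) and 11 in F/F (median -0.54), to be read against the same shares of all genes. Itgb2, the partner chain of Itgax, fell by 3.30 in W/F and by 1.46 in F/F, and Cd44, a receptor of Spp1, was at -2.63 in W/F and -1.204 in F/F. All 4 genes of the MITF and TFE family, Mitf, Tfeb, Tfe3 and Tfec, fell in W/F (median -1.02), and 3 of 4 fell in F/F (median -0.57), again against 59.3% and 31.2% of all genes.

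Other genes reported for lipid-associated macrophages were less uniform, and several of them, such as Apoe and Lpl, are known LXR targets that other liver cells also express. Of 18, 16 were called higher and 1 lower in each mutant than in W/W on vehicle, where 61.6% (W/F) and 69.3% (F/F) of all genes were called higher. With T0901317, 17 fell and 1 rose in W/F mice, where 59.3% of all genes were called lower. Mmp12, a macrophage metalloelastase, led the falls at -4.78, while Apoe rose by 0.28. In W/W mice 8 of the 18 rose with T0901317, where 7.87% of all genes were called higher. Among them were the fatty acid carrier Fabp5, by 3.73 (adjusted p 1.09e-08), and lipoprotein lipase, Lpl, by 2.72 (adjusted p 1.32e-07). In F/F mice, where 31.2% of all genes were called lower, 11 fell, led by Fabp5 at -1.38, 1 rose (Apoe, 0.42), and Lpl was not called at -0.36 (adjusted p 0.351).

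Markers of other cells moved with the members, and their part in the members' changes was not tested. The 10 general macrophage genes were 10 of 10 higher than W/W in each mutant on vehicle (all genes, 61.6% in W/F and 69.3% in F/F), with medians of 3.01 in W/F and 3.20 in F/F, and their summed level was 3032 to 4158 TPM in W/F vehicle and 3777 to 4770 TPM in F/F vehicle mice against 133 to 306 TPM in W/W vehicle mice. None of them was listed at 0 in any library. In F/F mice 7 of the 10 fell with T0901317 (median -0.999), against 8 of 10 members. Of all genes 31.2% were called lower there, with a median of -0.24. Neutrophil genes were 6 of 6 higher than W/W in each mutant on vehicle, with summed levels of 150 to 433 TPM in F/F against 2.52 to 7.45 TPM in W/W, and 5 of the 6 were listed at 0 in at least 1 library. Bile duct genes, a list that does not hold Spp1, were 6 of 6 higher in F/F than in W/F on vehicle (median 1.25), where 19% of all genes were called higher. Their summed levels were 139 to 176 against 47.4 to 74.2 TPM. Stellate cell genes were 7 of 7 higher in each mutant than in W/W on vehicle, with summed levels of 296 to 446 TPM in W/F, 531 to 711 TPM in F/F and 17.6 to 40.0 TPM in W/W. Of 7 hepatocyte genes 4 were called lower in W/F and 5 in F/F than in W/W on vehicle. Of all genes 68.5% were called in W/F and 76.5% in F/F, with 61.6% and 69.3% as higher. The summed level of the hepatocyte genes was 33737 to 38220 TPM in F/F vehicle mice against 72985 to 95101 TPM in W/W. Against W/W on vehicle, 5 of 5 monocyte genes tested were higher in each mutant, as were 4 of 4 dendritic cell genes and 3 of 4 T and NK cell genes. Of 3 B cell genes tested, 1 was lower in W/F and 1 higher in F/F, and of 5 endothelial genes 2 were lower in W/F, while in F/F 1 was higher and 2 were lower.

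Most Kupffer cell genes were lower in F/F than in W/W livers, where the members were higher. Of 9, 7 were called lower in F/F than in W/W on chow and 8 on vehicle (medians -1.90 and -2.34). Of all genes, 46.7% and 76.5% were called there, 43% and 69.3% as higher. The summed level of the 9 on chow was 254 to 401 TPM in F/F and 287 to 493 TPM in W/W, which overlapped. On vehicle it was 205 to 231 TPM in F/F, 531 to 669 TPM in W/F and 373 to 477 TPM in W/W, without overlap. Clec4f, a lectin specific to Kupffer cells, measured 0.354 ± 0.158 TPM in F/F, 44.99 ± 18.2 TPM in W/F and 72.3 ± 4.17 TPM in W/W mice on vehicle (mean ± SD, n = 4). With T0901317 3 of the 9 Kupffer genes rose in F/F mice and 0 fell, with a median of 0.47 and a lowest value of -0.37. Of all genes 35.1% were called there and 31.2% were called lower. Clec4f rose there by 4.53 (adjusted p 5.31e-13), and Cd5l, a secreted protein of Kupffer cells and known LXR target, by 5.49 (adjusted p 9.51e-12), in the same livers in which 8 members fell. Timd4, a marker of long-lived Kupffer cells, stayed at or below 0.325 TPM as a mean in every F/F group and was listed at 0 in some of these libraries. In W/F vehicle mice, whose summed member level was 3764 to 4309 TPM against 6483 to 7246 TPM in F/F, 3 Kupffer genes were lower and 2 higher than in W/W. Of all genes 68.5% were called in that comparison and 61.6% were called higher.

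**Figure D5:**
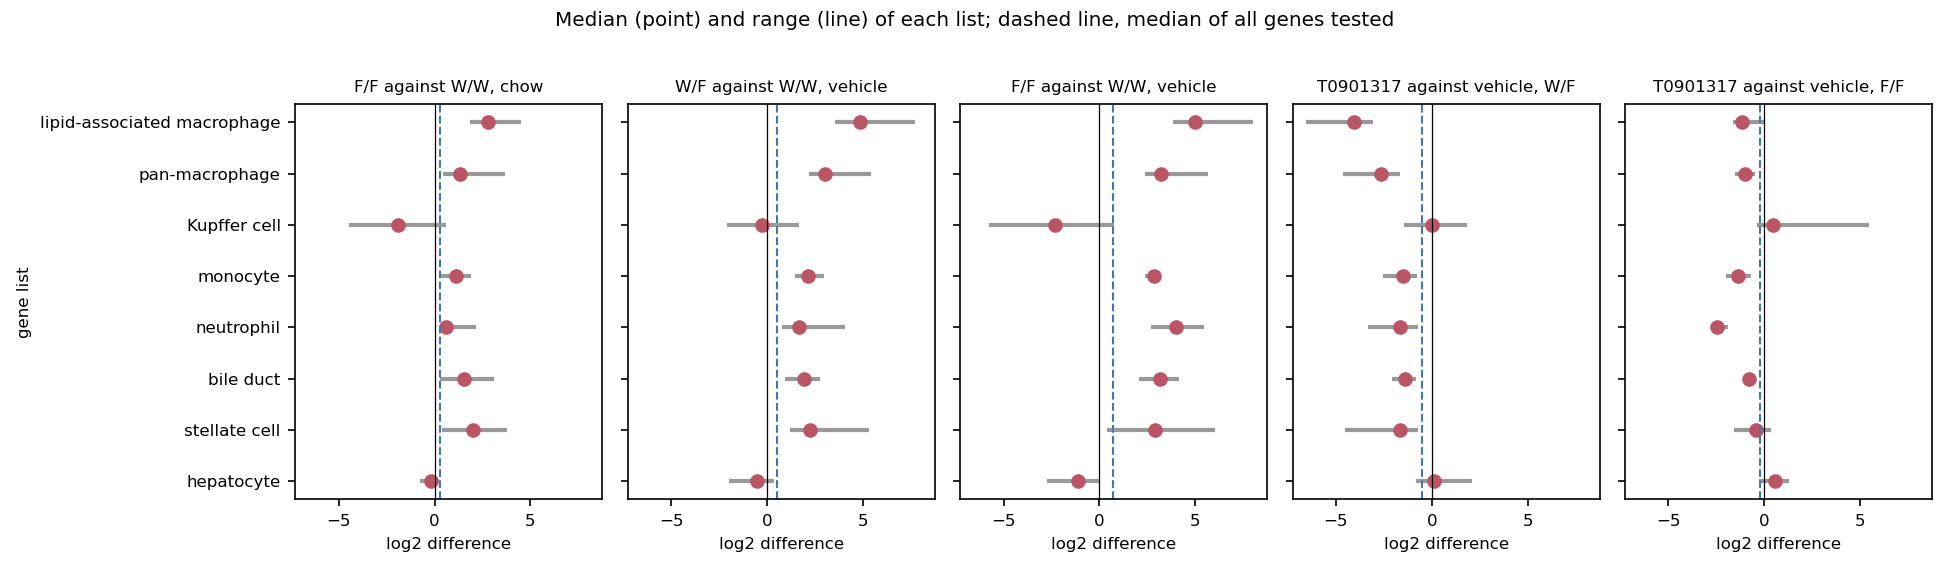
For 8 gene lists (rows) and 5 comparisons (panels), the point is the median and the grey line the range of the fitted log2 differences, and the dashed line is the median of all genes tested. The lipid-associated macrophage genes have the largest median in the first 4 panels, the neutrophil genes have the largest fall in F/F with T0901317, and the median of the Kupffer genes lies below zero in F/F against W/W.

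Likeness across the 36 livers was measured by the Pearson r of log2(TPM + 1) with 11196 genes that averaged at least 5 TPM in some group, as a description, since all genes share the libraries and the group differences. Genes nearest to Gpnmb were Itgax (r 0.993), Trem2 (0.993) and Lyz2 (0.991), and those nearest to Trem2 were Gpnmb, Gpr137b and Cxcl16. Tyrobp was nearest to Fcgr3, Ctss and Itgb2, Cd68 to Ctss, Lgals3 and Laptm5, and Lgals3 to Laptm5, Lgmn and Cd68. Itgax was nearest to Gpnmb, Sirpa and Lyz2, and Clec7a to Itgax, Mmp12 and Lyz2. Spp1 was nearest to Tspan8 (0.983), Plod2 and Bicc1, none of which is in a macrophage list used here, and Cd9 to Fkbp1a, Anxa5 and Myo1c. Cd63 was nearest to S100a11, Clcf1 and Tgfbi. Deviations of single mice from their group means were also compared between members. They ran together for Cd68 and Lgals3 (r 0.951), Gpnmb and Clec7a (0.946) and Tyrobp and Cd68 (0.936), and least for Spp1 and Cd9 (0.160), with r between Spp1 and the other 9 members no higher than 0.569. Libraries with mostly extreme values weigh on these r.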

How the data were processed

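Gene expression was measured by RNA sequencing of polyA RNA from 36 mouse livers. Per the submitters' processing notes, reads were handled with Trimmomatic 0.36, STAR 2.5.2b and featureCounts of Subread 1.5.2 on GRCm38 (mm10). The annotation and the step from counts to TPM are not given in the sources used here. The authors deposited TPM per gene, which sums to 1000000 in each library, and these TPM values were used as they stand. Gene positions are from GENCODE M21 and promoter windows from RefSeq.

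Limma 3.58.1 in R 4.3.3 was fitted to log2(TPM + 1) with 1 mean for each of the 9 groups, with variances moderated along the mean level, over the 16638 genes that reached 1 TPM in 4 or more livers. It gave 24 contrasts, each with Benjamini-Hochberg adjustment over all genes tested and a threshold of 0.05. Tables and plots used Python 3.11.15, numpy 2.4.6, pandas 2.3.3 and matplotlib 3.10.9. Read depth was recovered from the steps between low TPM values and the exon lengths of M21, which 49056 genes had and 259 did not. Of genes under 20 recovered reads, 93.7% to 95.7% per library then lay within 0.1 of a whole number. The fit was tried on simulated data with the same spread in every group and no library set apart. That trial cannot show how calls fare where the spread differs between groups. Alternatives were a pseudocount of 0.1, a minimum of 5 TPM, no filter, TPM rescaled by the median ratio over 14786 genes, a replicate block, only the groups compared, and each library left out. A library was left out only for the comparisons that use its group.

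The 10 members were all named. From the other lists the 2 largest called changes of a comparison and 1 in the opposite direction were named, and the general macrophage, Kupffer cell and bile duct lists could be named whole. The 16 lists were the members, other lipid-associated macrophage genes, receptor signalling, partner molecules, the MITF and TFE family, and markers of general macrophages, Kupffer cells, monocytes, dendritic cells, neutrophils, T and NK cells, B cells, bile duct, stellate, endothelial and hepatocyte cells. The members, lists and motifs were chosen with earlier results of these data known.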

Additional observations from a re-analysis of the deposited data

Results flagged for a closer look

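Each gene was examined in each group of 4 for a mouse set apart from the other 3, by Dixon's ratio of the gap to the range at its 95% critical value. Of 90 such groups of values 19 held 1, where chance gives about 1 in 20. The highest value was set apart in W/F T0901317 replicate 2 for Gpnmb (37.7 TPM), Trem2 (5.89 TPM), Cd9 (36.1 TPM), Cd63 (173 TPM), Lgals3 (81.9 TPM), Itgax (9.76 TPM) and Clec7a (34.6 TPM). The highest value was set apart in W/W vehicle replicate 4 for Gpnmb (3.05 TPM), Cd63 (27.8 TPM), Cd68 (14.1 TPM) and Itgax (3.23 TPM). The lowest value was set apart in W/W chow replicate 2 for Trem2 (0.107 TPM). The highest value was set apart in W/W T0901317 replicate 2 for Trem2 (1.66 TPM) and Lgals3 (21.8 TPM). The highest value was set apart in F/F chow replicate 4 for Spp1 (933 TPM). The highest value was set apart in W/W vehicle replicate 1 for Spp1 (55.4 TPM). The lowest value was set apart in F/F T0901317 replicate 3 for Cd68 (86.3 TPM) and Lgals3 (124 TPM). The lowest value was set apart in F/F vehicle replicate 3 for Cd68 (234 TPM).

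Responses to the diet and to T0901317 differed between genotypes for 56 of the 60 values tested with limma, at a Benjamini-Hochberg adjusted p under 0.05. These comparisons share control groups, and all values are in log2 units. For the response to T0901317 in W/F minus that in W/W, the difference was -6.61 for Gpnmb, -4.18 for Trem2, -3.41 for Tyrobp, -4.28 for Spp1, -4.12 for Cd9, -5.61 for Cd63, -4.01 for Cd68, -5.34 for Lgals3, -4.42 for Itgax and -4.79 for Clec7a. For the response to T0901317 in F/F minus that in W/W, the difference was -1.18 for Trem2, -1.52 for Tyrobp, -2.79 for Spp1, -2.19 for Cd9, -2.56 for Cd63, -1.75 for Cd68 and -2.28 for Lgals3. For the response to T0901317 in F/F minus that in W/F, the difference was 5.02 for Gpnmb, 3.00 for Trem2, 1.89 for Tyrobp, 1.49 for Spp1, 1.93 for Cd9, 3.06 for Cd63, 2.26 for Cd68, 3.06 for Lgals3, 3.47 for Itgax and 4.74 for Clec7a. For the diet response in W/F minus that in W/W, the difference was 7.72 for Gpnmb, 4.83 for Trem2, 4.01 for Tyrobp, 3.67 for Spp1, 4.21 for Cd9, 5.39 for Cd63, 4.31 for Cd68, 5.81 for Lgals3, 5.06 for Itgax and 5.46 for Clec7a. For the diet response in F/F minus that in W/W, the difference was 3.53 for Gpnmb, 2.69 for Trem2, 2.03 for Tyrobp, 2.09 for Spp1, 2.36 for Cd9, 2.36 for Cd63, 2.38 for Cd68, 3.29 for Lgals3 and 1.91 for Itgax. For the diet response in F/F minus that in W/F, the difference was -4.19 for Gpnmb, -2.14 for Trem2, -1.98 for Tyrobp, -1.58 for Spp1, -1.85 for Cd9, -3.02 for Cd63, -1.93 for Cd68, -2.52 for Lgals3, -3.15 for Itgax and -4.39 for Clec7a.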

How the results depend on the processing

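No called member value changed sign under an alternative. The side of the threshold was the same for 234 of 240 with a pseudocount of 0.1, 239 with a minimum of 5 TPM, 238 with no filter, 233 after rescaling, 211 of 225 with only the groups compared, and 2372 of 2400 with 1 library left out. Among uncalled values the sign changed for 1 with a pseudocount of 0.1, 6 after rescaling and 39 with 1 library left out. Deviations from group means were correlated between same-numbered mice as a check for pairing. In 18 comparisons of 2 groups, 0 had every such pair over 0.1, with r from -0.17 to 0.30. Between W/F and W/W with T0901317 r was 0.05 to 0.30. This rule cannot exclude a weaker or partial pairing of mice by replicate number. With the replicate block 239 of 240 were the same, and Itgax with T0901317 against chow in W/F was 0.98 at an adjusted p of 0.0502. Changes in the number of members called included the following, and the cause was not tested. For T0901317 against vehicle in F/F it was 5 after rescaling, 6 with a pseudocount of 0.1 and 9 with only the groups compared. For T0901317 against chow in W/W it was 5 after rescaling or with a pseudocount of 0.1 and 6 with only the groups compared, and for the T0901317 response of F/F against W/W 5 after rescaling, 6 with a pseudocount of 0.1 and 8 with only the groups compared. After rescaling it was 1 for W/F against W/W with T0901317. With only the groups compared it was 1 for the diet in W/W, 2 for T0901317 against chow in W/F and 6 for F/F against W/F on vehicle, and with a pseudocount of 0.1 that last number was 1. With 1 library left out it was 2 to 3 for T0901317 against vehicle in W/W and 6 to 8 in F/F, 3 to 4 for T0901317 against chow in W/W and 5 to 9 in W/F, 0 to 1 between W/F and W/W, both on chow and with T0901317, and 1 to 2 for F/F against W/F on vehicle. It was 6 to 8 for the T0901317 response of F/F against W/W, and 9 to 10 for the diet response of F/F against W/W and against W/F. Leaving out W/F T0901317 replicate 2 moved 30 values by over 1.5 times. Depth limits Trem2 in W/W and W/F chow mice, where 1 library of each held 4 reads, and recovered reads carry counting error only.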
